A study of Mus musculus with 3 samples.

Results

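Mouse chromosome 11 held 1402 of the 24586 recombination hotspots in the deposited table, here called sites, and 22229 sites lay on the other 18 autosomes. All sites that the table places on chromosome 11 were taken. The chromosome had been picked as a gene-dense autosome with the lowest median ratio of DMC1 to H3K4me3, so its ratio and the signals of both marks against the other autosomes are given as a description. The next chromosomes in that order were close: the median log2 ratio was 2.40 on chromosome 11, 2.41 on chromosome 2 and 2.42 on chromosome 9.

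The animals were F1 males of a C57BL/6J (B6) by CAST/EiJ (CAST) cross, given as strain B6xCAST, with the Prdm9 genotype HUM/CAST, that is a humanized and a CAST allele. Whole adult testis without its tunica was used, so the few cells in early meiosis were mixed with all other testis cells. The DMC1 library came from a male of 10 weeks and the H3K4me3 library from an adult male, with 1 library per assay and no control group. All libraries share the genotype, so nothing here compares genotypes, and no difference has a replicate check or a p-value.

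PRDM9 is a zinc-finger histone methyltransferase of early meiosis. It binds short DNA motifs, places H3K4me3 on the nucleosomes beside them and thereby marks where programmed double-strand breaks form. The broken ends are resected, and the recombinase DMC1 coats the single strands until they are repaired from a homologue, so DMC1 ChIP-seq reads out how many breaks form and how long they stay unrepaired. H3K4me3 is also a general mark of active promoters, where it does not need PRDM9.

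Few sites were centred at gene starts, and in 4 cases the centre of a site fell inside a listed promoter, the 250 bases before and 50 bases after an annotated gene start. These promoters are printed, with those of Sh3bp5l and Zcchc10, whose sites had 2 of the 5 lowest ratios among the stronger sites and lay within 1 kb of a gene start. Sequences are RefSeq's for GRCm38.p6, the build also called mm10, read 5′ to 3′ on the gene's strand, with CpG dinucleotides in capitals.

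Havcr1 (chr11:46750261-46750560, plus strand): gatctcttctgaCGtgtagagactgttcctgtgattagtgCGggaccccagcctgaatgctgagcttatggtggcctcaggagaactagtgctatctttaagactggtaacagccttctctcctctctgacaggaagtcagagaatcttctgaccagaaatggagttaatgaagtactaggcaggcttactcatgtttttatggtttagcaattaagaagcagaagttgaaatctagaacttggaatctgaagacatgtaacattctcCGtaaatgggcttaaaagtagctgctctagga
Olfr1388 (chr11:49443603-49443902, plus strand): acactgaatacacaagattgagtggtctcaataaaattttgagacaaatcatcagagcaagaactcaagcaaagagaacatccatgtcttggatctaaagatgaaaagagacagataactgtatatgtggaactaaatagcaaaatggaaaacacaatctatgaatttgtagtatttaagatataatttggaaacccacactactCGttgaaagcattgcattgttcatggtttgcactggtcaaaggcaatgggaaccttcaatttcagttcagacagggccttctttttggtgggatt
Nlrp3 (chr11:59542436-59542735, plus strand): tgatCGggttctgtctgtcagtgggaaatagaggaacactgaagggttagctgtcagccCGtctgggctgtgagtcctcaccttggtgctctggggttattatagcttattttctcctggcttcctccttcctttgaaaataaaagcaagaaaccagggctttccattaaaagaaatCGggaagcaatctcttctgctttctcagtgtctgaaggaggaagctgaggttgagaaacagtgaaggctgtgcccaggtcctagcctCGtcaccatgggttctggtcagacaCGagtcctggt
Sost (chr11:101966966-101967265, minus strand): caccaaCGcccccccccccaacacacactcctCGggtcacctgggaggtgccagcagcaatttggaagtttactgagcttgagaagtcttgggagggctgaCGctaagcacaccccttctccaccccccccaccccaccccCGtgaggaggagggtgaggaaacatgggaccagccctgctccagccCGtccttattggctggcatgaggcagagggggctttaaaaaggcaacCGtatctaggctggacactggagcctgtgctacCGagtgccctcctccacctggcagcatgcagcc
Sh3bp5l (chr11:58330540-58330839, plus strand): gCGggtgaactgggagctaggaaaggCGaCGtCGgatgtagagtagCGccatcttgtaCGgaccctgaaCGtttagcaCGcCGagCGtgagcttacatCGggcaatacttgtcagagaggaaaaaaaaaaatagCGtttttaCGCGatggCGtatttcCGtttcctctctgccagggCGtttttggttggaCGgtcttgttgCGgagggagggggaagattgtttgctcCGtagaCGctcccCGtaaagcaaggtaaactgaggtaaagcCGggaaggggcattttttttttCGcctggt
Zcchc10 (chr11:53324439-53324738, plus strand): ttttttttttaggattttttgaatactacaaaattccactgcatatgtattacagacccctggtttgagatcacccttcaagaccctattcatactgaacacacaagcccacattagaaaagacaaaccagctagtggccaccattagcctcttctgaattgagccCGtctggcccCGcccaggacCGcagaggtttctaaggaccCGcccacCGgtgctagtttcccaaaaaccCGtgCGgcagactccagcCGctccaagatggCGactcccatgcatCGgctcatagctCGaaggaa

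The promoters that held a site centre had fewer CpG dinucleotides than the median promoter. Havcr1, which encodes a receptor of kidney injury and T cells, had 3, the olfactory receptor gene Olfr1388 had 1, the inflammasome gene Nlrp3 had 5 and Sost, which encodes the bone-forming inhibitor sclerostin, had 7. The median over the 1561 promoters listed for chromosome 11 was 17, with quartiles of 5 and 26. Nlrp3 and Sost were thus not below the lower quartile, and with so few promoters nothing is read from these counts. Sh3bp5l had 24 and Zcchc10 had 11. The promoter table held 1271 of the 1609 protein-coding genes of the chromosome, or 79.0%, and a check of base composition over all genes was void at that coverage.

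The strongest of these promoter sites was at Nlrp3, centred 78 bases before a listed start and 1.04 kb inside the annotated span of the gene (position 59542608). It was a CAST site, meaning that the authors assigned it to the CAST allele of PRDM9. Its DMC1 signal was 608 and its H3K4me3 15.1, on the arbitrary scales that the authors' peak callers give, and its ratio of 40.2 was the highest on the chromosome among sites past the median for both marks combined. The B6 share, the fraction of a mark's signal that lay on the B6 homologue, was 0.989 for DMC1 and 0.823 for H3K4me3. The site did not overlap an H3K4me3 peak that the authors found to be independent of PRDM9. The other promoter sites were weaker. Havcr1 had a CAST site with DMC1 68.8 and H3K4me3 8.46, Olfr1388 a HUM site, assigned to the humanized allele, with 29.5 and 5.19, and Sost a site of class UNK with 29.8 and 12.6. The sites near the Sh3bp5l and Zcchc10 starts, which were picked for their low ratios, both overlapped independent peaks. They had H3K4me3 of 107 and 56.0 and DMC1 of 31.5 and 18.8, and no contrast with the promoter-centred sites is read from them. Their ratios were 0.295 and 0.336.

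Chromosome 11 was dense in both sites and genes. Between the first and last site it had 11.8 sites per Mb, against 9.79 on the other autosomes together, and this was the highest of 19, just above chromosome 19. It had 13.5 protein-coding genes per Mb, against 8.28, with only chromosome 7 denser at 14.2. Neighbouring sites were a median 53.4 kb apart, against 56.7 kb. The longest stretch without a site was 1.13 Mb, from 13428459 to 14560602, and 14 of 1401 neighbouring pairs were closer than 2 kb. That is 0.999% (exact 95% binomial interval 0.547% to 1.67%), against 0.819% elsewhere. Such intervals cover counting error only, and the reads behind a single signal were unknown.

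Beside the lower ratio, median H3K4me3 was higher and median DMC1 lower than on the other autosomes. The median H3K4me3 of the 1402 sites was 13.4 (95% interval 12.6 to 14.4, from the order statistics of the sites), against 11.5 on the other autosomes, and was the highest of 19 (10.0 to 13.1 on the others). The median DMC1 was 57.6 (52.6 to 64.6), against 61.7, and was the third lowest (56.8 to 67.1). The median of the ratios of single sites was 5.29, against 6.10, or 1.15-fold lower. On the log2 scale the median was 2.40 (2.34 to 2.48), against 2.61, with the other autosomes between 2.41 and 2.93. With only the first site of each repeated H3K4me3 value, the difference in log2 ratio was -0.14, against -0.21 over all sites, and chromosome 11 was the third lowest. First here means first in the deposited order, over all chromosomes. This left out 629 of the 1402 sites, only 48 of which repeat a value within chromosome 11. The change is thus not read as an effect of repeated values. The intervals of these medians treat the sites of single libraries as independent, and they do not cover differences among animals. Single sites ranged far more widely than chromosomes did: DMC1 reached 933, with 80% of sites between 16.2 and 322, H3K4me3 ran from 0.559 to 152 and the ratio from 0.103 to 40.2.

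**Figure D1:**
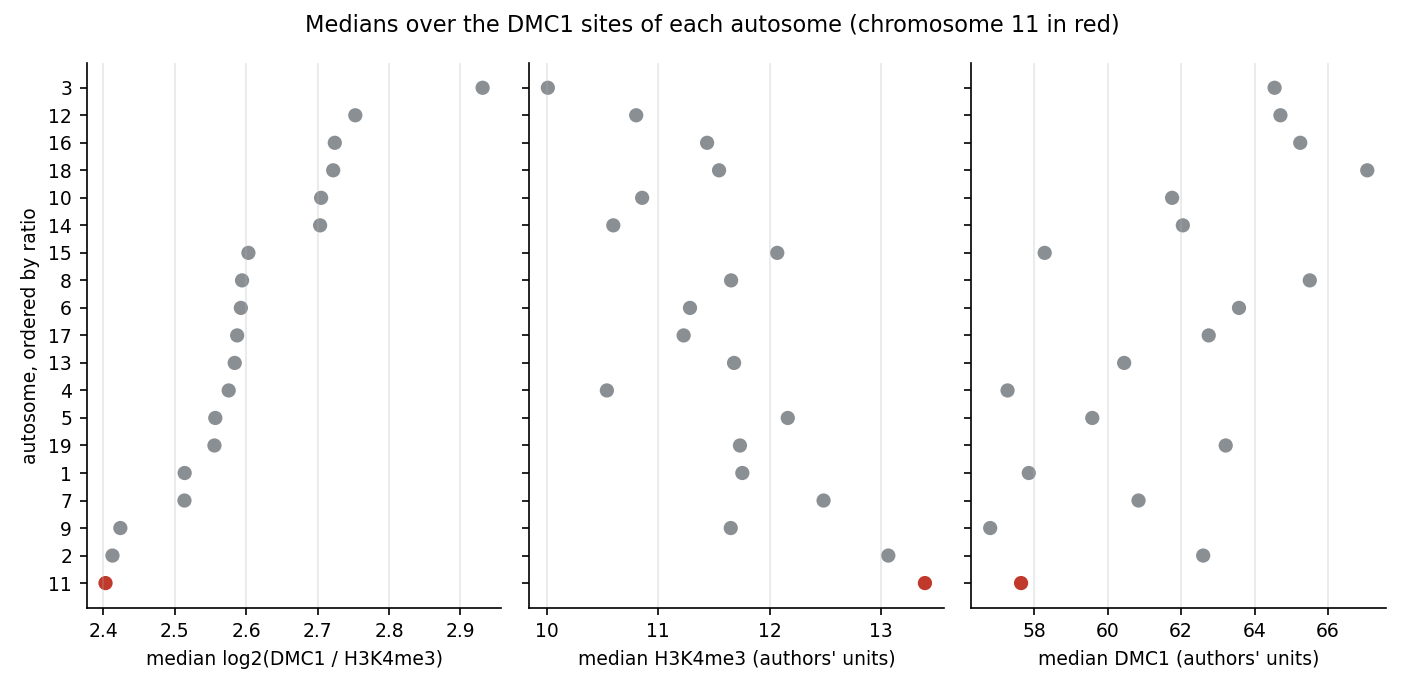
Median log2 ratio of DMC1 to H3K4me3, median H3K4me3 and median DMC1 (authors' units) over the sites of each autosome, 1 point per autosome, ordered by the ratio. Chromosome 11, in red, is lowest in ratio (2.40), highest in H3K4me3 (13.4) and the third lowest in DMC1 (57.6); the axes do not start at 0.

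Counts past the quartiles of all autosomes describe the same choice. The lower quartile of the ratio over all autosomes was 3.53, and 430 chromosome 11 sites fell under it, 30.7%, where 24.6% of sites on other autosomes did. Above the upper quartile of 10.1 were 264 sites, 18.8%, against 25.4%. H3K4me3 was over its upper quartile of 22.8 at 398 sites, 28.4%, against 24.8%. Since the chromosome was chosen on these values, nothing is read from the counts.

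**Figure D2:**
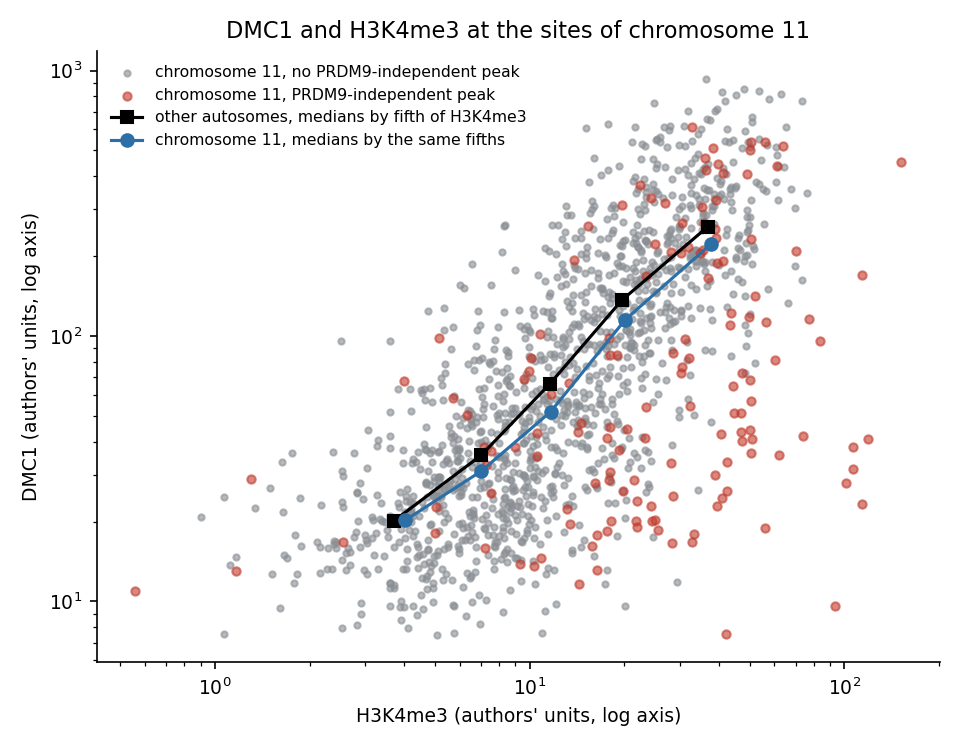
DMC1 against H3K4me3 (authors' units, log axes) at the 1402 sites of chromosome 11, with the 142 sites on PRDM9-independent peaks in red. Lines join the medians of the 5 quintiles of autosomal sites by H3K4me3; chromosome 11 (blue) was lower than the other autosomes (black) in log2 ratio in every quintile, by 0.11 to 0.41.

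The difference in ratio, on which the chromosome was chosen, had the same sign at weak and strong H3K4me3 but varied in size. In quintiles of all autosomal sites by H3K4me3, the median log2 ratio of chromosome 11 minus that of the other autosomes was -0.11, -0.18, -0.41, -0.29 and -0.16 from weakest to strongest. It was largest in the middle quintile, where 273 chromosome 11 sites had a median DMC1 of 51.8, against 65.8 at nearly the same H3K4me3 (11.7 and 11.6). Among the strongest quintile, 316 sites, DMC1 was 223, against 258. By ratio, chromosome 11 ranked 3, 2, 1, 1 and 4 from the lowest of 19 autosomes, from weakest to strongest quintile.

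Overlap with PRDM9-independent H3K4me3 was somewhat more frequent. It came with lower ratios and was more frequent near gene ends. Since the chromosome was chosen for a low ratio and gene density, nothing is read from its share of overlap. The overlap was recorded at 142 sites, 10.1% (8.60% to 11.8%), against 8.58% on other autosomes. Only chromosome 7 had a higher share, 10.4%. These sites had a median H3K4me3 of 29.4 and DMC1 of 50.8, and their log2 ratio of 1.34 was lower by 1.12 than that of the remaining sites. At the other 1260 sites the log2 ratio was 2.46, against 2.67, the lowest of 19 autosomes. At the independent sites alone chromosome 11 was 6th lowest, at 1.34 against 1.47. Nor is anything read from these ranks, as the chromosome was chosen on the ratio.

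Sites with extreme ratios were named among those past a limit on both marks combined. A site with little DMC1 could pass it only through high H3K4me3, which favours independent peaks among the low ratios, so nothing is read from the overlap. The 5 lowest ratios among sites past the autosomal median of the summed rank of both marks all lay on independent peaks inside genes. The first was in Ccdc117 (position 5540001), with DMC1 9.63 against H3K4me3 93.5, a ratio of 0.103. Mink1, a kinase gene (70614383), had a ratio of 0.205 and Acyp2, an acylphosphatase gene (30573912), 0.276, and the remaining 2 were the Sh3bp5l and Zcchc10 sites (58331593 and 53325598). None of the 5 highest ratios lay on such a peak. After Nlrp3 they were in Tns3, a focal adhesion gene (8550672, ratio 35.5), in Prkca, which encodes protein kinase C alpha (108299585, 31.4), in Ppm1d, a phosphatase gene of the p53 response (85318715, 31.2), and 278 kb from Abca13 (9963168, 30.6). The Nlrp3, Tns3 and Abca13 sites were on the B6 homologue, with DMC1 shares of 0.989, 0.995 and 0.993, and the Ppm1d site, of the HUM class, was on the CAST homologue, with 0.00826. The Prkca site had 0.504.

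The authors assigned 759 chromosome 11 sites to the CAST allele, 54.1%, against 52.2% on the other autosomes, and 527 to the HUM allele, 37.6%, against 39.4%. Both shares were within the range of the other autosomes. A further 113 sites were UNK and 3 were KO, classes the file headers do not define. CAST sites were the stronger: their median DMC1 was 83.8 and H3K4me3 15.7, against 47.8 and 11.7 at HUM sites, a CAST minus HUM difference of 0.81 and 0.43 on the log2 scale. CAST sites carried 68.6% of the chromosome's summed DMC1 signal, against 64.2% on the other autosomes, and HUM sites 26.5%, against 31.2%.

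By class, the medians of the marks stood as follows. At CAST sites the median DMC1 was as high as elsewhere, 83.8 against 82.6, while H3K4me3 was 15.7 against 13.1. Their log2 ratio was 2.58, against 2.80, and the lowest of 19. At HUM sites DMC1 was lower, 47.8 against 52.3, and H3K4me3 higher, 11.7 against 10.5, with a log2 ratio of 2.29, against 2.45, and only chromosome 2 was lower. The largest gap was at the UNK sites, with 1.60 (1.38 to 2.11) against 2.06, although only 113 sites stood behind it. Whether the classes differ in this gap was not tested. Nothing is read from the ranks by ratio, on which the chromosome was chosen.

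The 5 strongest CAST sites reached DMC1 values of 814 to 933. The first lay 33.4 kb from Lgalsl, a galectin-like gene (20865286, DMC1 933, H3K4me3 36.5), and the next 3.92 kb from Dppa1 (46633191, DMC1 853, H3K4me3 48.0). The others were inside Ccdc88a, which encodes the actin-binding protein girdin (29491110, DMC1 836), Hormad2, which encodes a protein of the meiotic chromosome axis (4407994, DMC1 832), and Znrf3, whose product removes Wnt receptors from the cell surface (5420681, DMC1 814). On all 5 both homologues carried DMC1, with B6 shares from 0.467 to 0.792. The 5 strongest HUM sites were weaker, at 515 to 618. They lay inside Axin2, a brake on Wnt signalling (108927826, DMC1 618), Ebf1, a B cell transcription factor gene (44645321, DMC1 601), Clint1, a clathrin adaptor gene (45907057, DMC1 554), and Tob1, an antiproliferative gene (94214087, DMC1 536, on an independent peak), and 91.6 kb from Tmem100 (90128155, DMC1 515). The Tmem100 site alone among these was almost entirely on 1 homologue, with shares of 0.996 for DMC1 and 0.980 for H3K4me3. The strongest UNK site, in Mtmr4, a phosphoinositide phosphatase gene (87604600), had DMC1 705.

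The 3 KO sites all overlapped independent peaks and lay between genes. The strongest, 8.92 kb from P4ha2, a collagen prolyl hydroxylase gene (54140584), had DMC1 50.6 and H3K4me3 6.34, with B6 shares of 0.00855 and 0.0307. The others, at 15179409 and 28780205, had DMC1 of 12.98 and 10.9 and H3K4me3 of 1.17 and 0.559.

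Because B6 and CAST differ at many bases, the homologue carrying each mark could be followed. A DMC1 B6 share was given at 1298 chromosome 11 sites. It was over 0.9 at 232, 17.9%, against 19.4% on the other autosomes, and under 0.1 at 170, 13.1%, against 14.4%. Sites on 1 homologue thus made up 31.0% (28.5% to 33.6%), against 33.8%, the second lowest share of 19 after chromosome 2. For H3K4me3, with a share at 1335 sites, 115 were over 0.9, 8.61% against 8.98%, and 69 under 0.1, 5.17% against 4.84%. By DMC1, 146 CAST sites were B6-only, 20.6% against 21.3% elsewhere, and 64 CAST-only, 9.04% against 10.2%. Of the HUM sites 76 were B6-only, 15.4% against 17.3%, and 87 CAST-only, 17.7% against 18.9%. All of these shares were near those of the other autosomes.

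**Figure D3:**
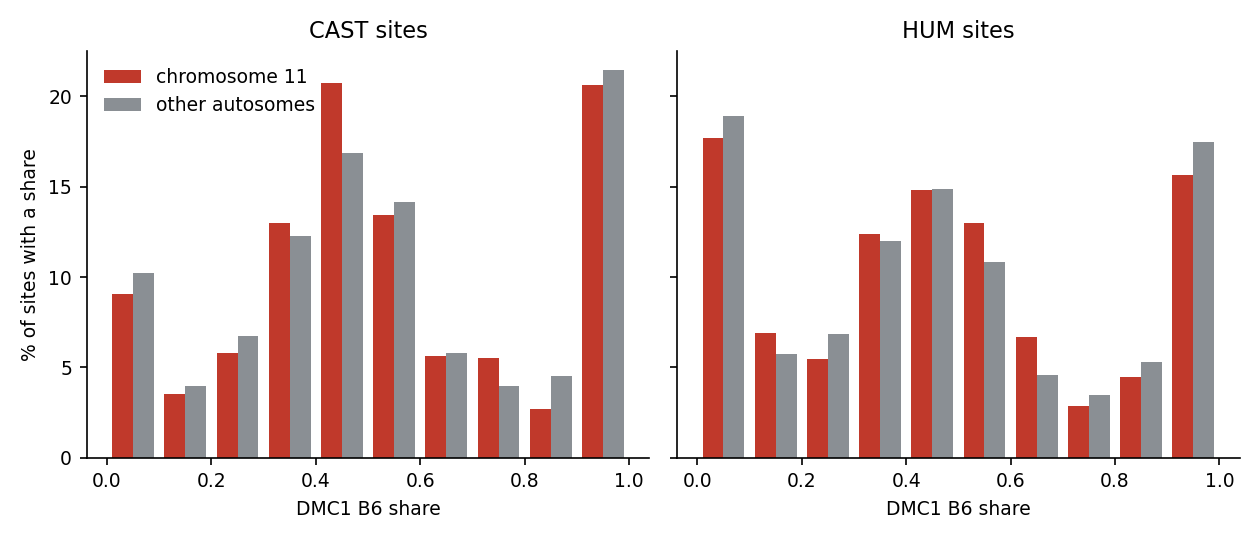
Distribution of the DMC1 B6 share at CAST sites and at HUM sites, as percent of the sites with a share in bins of 0.1 (chromosome 11 in red, other autosomes in grey). Both classes have a peak near 0.5 and a peak at each end; at CAST sites of chromosome 11 the bin of 0.4 to 0.5 holds 20.8%, against 16.9%.

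B6-only CAST sites were the strong ones. Their median DMC1 was 204, against 77.0 at CAST-only sites of the same class, while among HUM sites these values were 57.2 and 55.3. The other autosomes were similar at CAST sites, with 187 and 70.4, and had 53.6 and 73.5 at HUM sites. Of the 100 strongest sites of the chromosome, which carried 31.2% of its DMC1 signal, 85 were CAST and 11 HUM. Of the 98 of them with a share, 45 were B6-only, 4 CAST-only and 42 between 0.3 and 0.7. The strongest sites of the other autosomes were not counted, so these numbers are not read as particular to chromosome 11. The most B6-biased of the 100 were CAST sites 5.15 kb from Spdl1, a spindle checkpoint gene (34804032, share 0.998), 17.8 kb from Bod1, a chromosome orientation gene (31689644, 0.998), and in Cox10, a gene of haem A synthesis (63981281, 0.997). The most CAST-biased were also CAST sites, 283 kb from Clint1 (45568995, 0.00469), 28.3 kb from Vstm2a (16312855, 0.0111) and in Stxbp4, a syntaxin-binding protein gene (90631175, 0.0162).

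Where H3K4me3 lay on 1 homologue, DMC1 was higher relative to H3K4me3 than where it lay on both. On chromosome 11 the log2 ratio was 3.25 at the 184 one-homologue sites and 2.19 at the 859 both-homologue sites, a difference of 1.05. The other autosomes had 3.55 and 2.41, and chromosome 11 was the lowest of 19 in each group. Since the chromosome was chosen for its low ratio, nothing is read from these ranks. The gap to the other autosomes was widest at the 69 sites with CAST-only H3K4me3. Their median DMC1 was 61.4, against 120 elsewhere, H3K4me3 was 8.38 against 10.6, and the log2 ratio 2.93 (2.53 to 3.40) against 3.51. At the 115 B6-only sites the log2 ratio was 3.39, against 3.56, and DMC1 was 173, against 175.

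Sites of chromosome 11 lay in genes slightly more often than those of most autosomes. Inside a protein-coding gene were 814 sites, 58.1% (55.4% to 60.7%), against 53.7%, and only chromosome 2 had more, 58.3%. Within 1 kb of either end of a gene were 79 sites, 5.63% (4.49% to 6.97%), against 3.05%, the highest of 19. Within 5 kb were 21.9%, against 15.1%. Gene number per length was also higher on chromosome 11, and its part in these shares was not tested.

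Sites in genes were stronger in both marks than sites between genes. Median DMC1 was 70.2 and H3K4me3 14.6 in genes, against 47.7 and 12.1 at the 588 sites between genes. The log2 ratios were close, 2.44 and 2.38, and the other autosomes had 2.65 and 2.57. With distance from a gene end the log2 ratio of chromosome 11 sites went from 2.23 within 1 kb to 2.41 at 1 to 5 kb, 2.38 at 5 to 20 kb, 2.44 at 20 to 100 kb and 2.52 beyond 100 kb. Independent overlap was 20.3% within 1 kb and 3.85% beyond 100 kb. Without the overlapping sites the first bin had 2.37 at 63 sites, against 2.79 on other autosomes, and the last had 2.53, against 2.67.

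The ratio was not even along the chromosome. In 25 windows of 5 Mb, numbered from the centromeric end, the median log2 ratio ranged from 1.89 to 3.06, with 22 to 84 sites per window. The 3 highest were windows 1 (3.06, 46 sites, 49 genes), 4 (2.91, 47 sites, 13 genes) and 2 (2.74, 56 sites, 48 genes). The 3 lowest were windows 25 (1.89, 33 sites, 67 genes), 12 (1.94, 48 sites, 93 genes) and 15 (2.09, 54 sites, 127 genes). Chromosome 11 was not extreme at either end: on the other 18 autosomes the first window had a median of 2.99 (2.48 to 3.65) and the last a median of 2.21 (1.29 to 3.72).

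Ratios were mostly lower past 50 Mb, a boundary chosen after the values were seen. The 447 sites of windows 1 to 10 had a median log2 ratio of 2.72 (2.59 to 2.83), with every window at 2.51 or above. The 955 sites of windows 11 to 25 had 2.31 (2.21 to 2.37), with windows from 1.89 to 2.66. The difference of 0.41, or 1.33-fold, came with changes in both marks. Median DMC1 was 67.7 before and 55.3 after the boundary, and H3K4me3 11.9 and 14.3. The first 50 Mb held 293 genes and the rest 1316, and independent overlap was 8.28% and 10.99%.

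**Figure D4:**
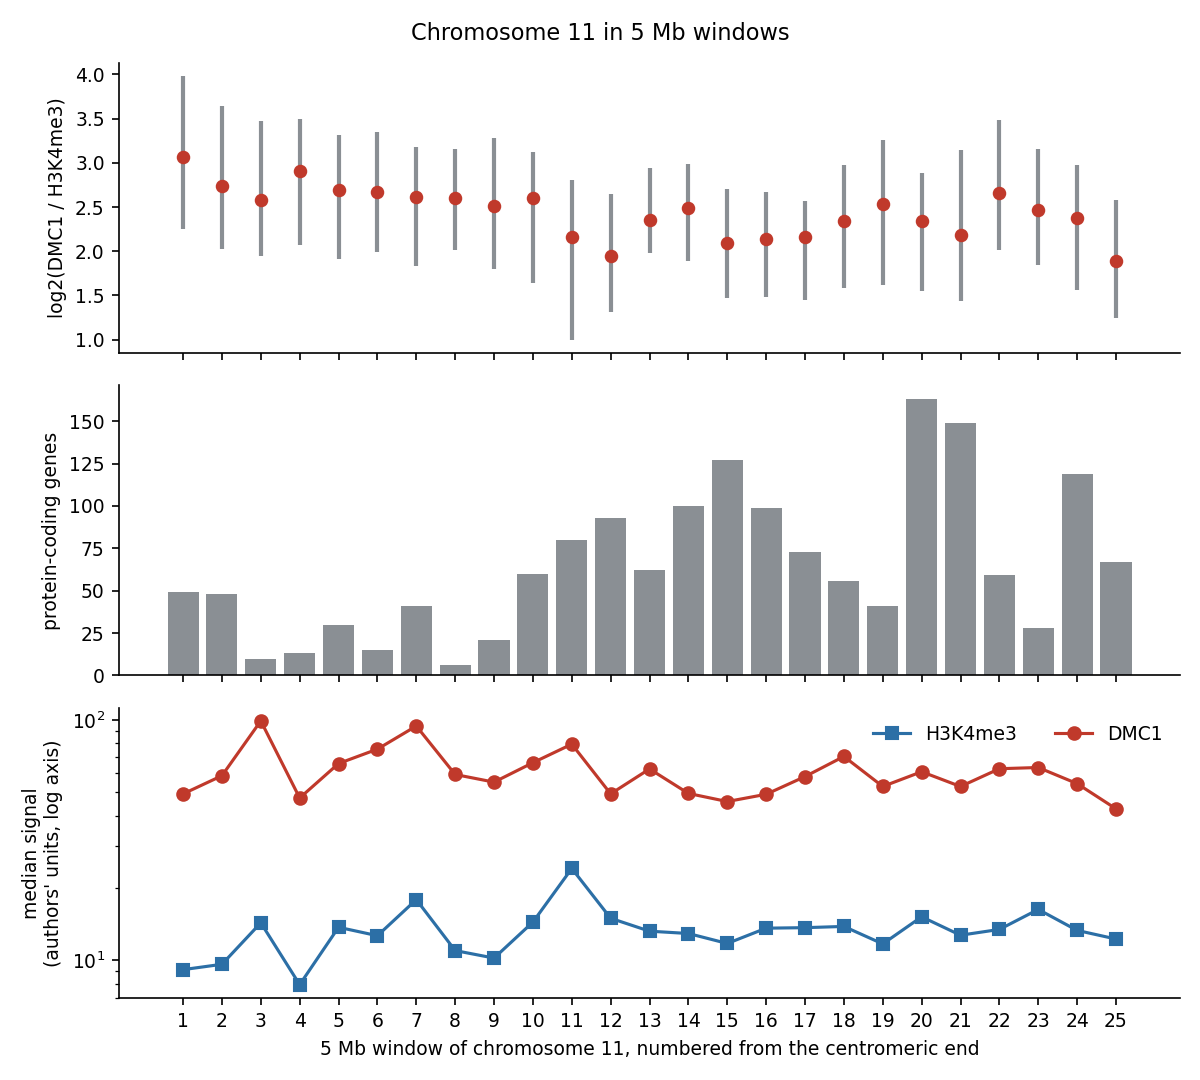
Chromosome 11 in 5 Mb windows numbered from the centromeric end. The top panel gives the median log2 ratio (points) with quartiles (lines), the middle panel the number of protein-coding genes, and the bottom panel median DMC1 and H3K4me3 on a log axis; ratios are highest in windows 1, 4 and 2 and lowest in 25, 12 and 15, and window 11 has the highest H3K4me3 (24.1).

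Windows with more genes had lower ratios. Across the 25 windows the Spearman correlation of the median log2 ratio with gene number was -0.68, the most negative of the 19 autosomes. The Pearson correlation of -0.58 was not, with -0.63 on chromosome 19. Ranks were taken in 5 Mb windows only. By Spearman, the other autosomes ranged from -0.53 to 0.20 with a median of -0.21, and 16 of 18 were below 0. With the marks taken singly, the correlation with gene number was 0.24 for H3K4me3 and -0.39 for DMC1. Gene number was itself correlated with window number (0.57), and so was the ratio (-0.64), so position and gene number cannot be told apart here. For the ratio with window number, the other autosomes ran from -0.66 (chromosome 5) to 0.49 (chromosome 14). Their pooled windows had -0.32. These correlations are across neighbouring windows of 1 chromosome and 1 pair of libraries, and they describe those windows only.

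**Figure D5:**
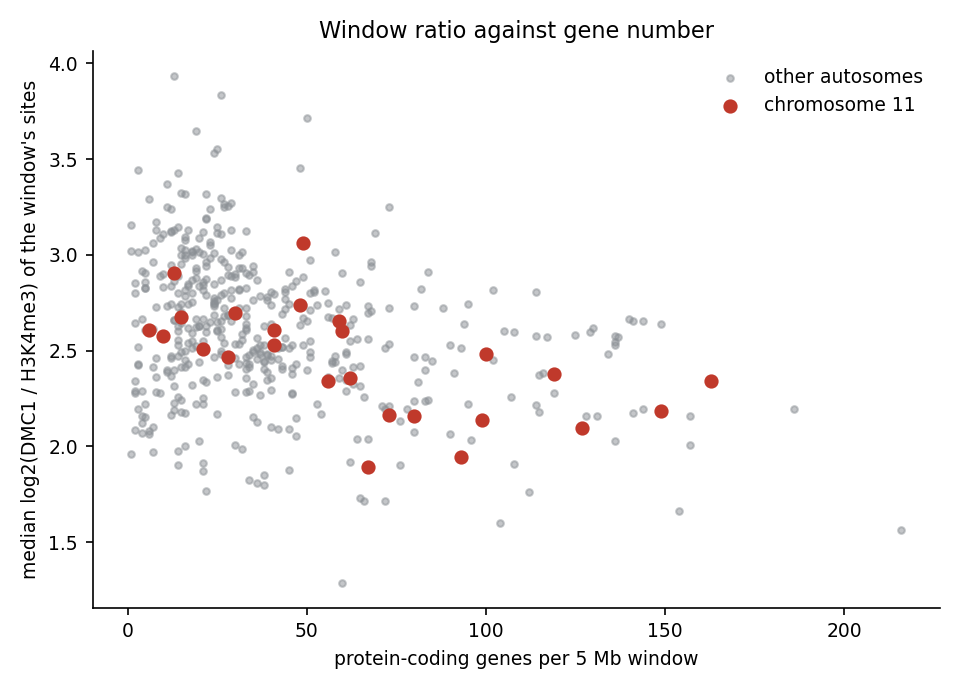
Median log2 ratio of DMC1 to H3K4me3 against the number of protein-coding genes in 5 Mb windows, for the 25 windows of chromosome 11 (red) and 463 windows of the other autosomes (grey). The 14 chromosome 11 windows of 50 or more genes lie at 1.89 to 2.66, and the 11 of fewer genes at 2.47 to 3.06, so the ranges overlap. The Spearman correlations are -0.68 on chromosome 11 and -0.27 over the other windows pooled.

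The ratio was also described by the gene number of the windows. Autosomal sites were divided into quintiles by the gene number of their window. Chromosome 11 had 143 sites in windows of 0 to 19 genes and 585 in windows of 68 to 216. Its log2 ratio minus that of the other autosomes was -0.01, -0.26, -0.00, -0.01 and -0.19 from the gene-poorest to the gene-richest quintile, and so near 0 in 3 of the 5. Weighted over the quintiles the difference was -0.11, against -0.21 over all sites. Chromosome 11 was then the third lowest of 19, after chromosome 2 (-0.16) and one other.

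Window 11, from 50 to 55 Mb, stood out in H3K4me3. The median over its 65 sites was 24.1, at percentile 99.6 of the 488 autosomal windows, with a DMC1 of 79.3 at percentile 86.1 and a log2 ratio of 2.16 at percentile 11.1. H3K4me3 was over the autosomal upper quartile at 34 of the 65, or 52.3%, which describes the same choice. The share was 28.4% on the whole chromosome and 24.8% on the other autosomes. Independent overlap was recorded at 9 of the 65 sites, or 13.8%, against 10.1% on the whole chromosome and 8.58% on the other autosomes. Without these 9 sites the log2 ratio was 2.30. The window includes Rad50 and the cytokine genes Il4, Il5 and Il13, and the sites there are described with the gene groups.

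Windows also differed in which homologue was used. In window 4, from 15 to 20 Mb, DMC1 was CAST-only at 16 of 44 sites with a share, 36.4% (22.4% to 52.2%), the highest value of all 488 windows, and the median DMC1 share was 0.335. In window 19, from 90 to 95 Mb, 9 of 30 were CAST-only (14.7% to 49.4%). Window 20 beside it had 2 of 66, or 3.03%. With so few sites per window these intervals are wide, and window 4 is the extreme of many windows.

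Among protein-coding genes of the chromosome, 456 of 1609, or 28.3%, held at least 1 site, and 604, or 37.5%, had one in the gene or within 5 kb. Of 16 genes of meiosis and germ cells, 8 held a site and 9 had one in the gene or within 5 kb, with 15 sites in all and a median log2 ratio of 2.63. These genes are longer, with a median length of 33.7 kb against 14.3 kb. Rad50, part of the complex that processes broken ends, had 3 strong sites with DMC1 of 539, 487 and 406 and H3K4me3 of 43.1, 34.3 and 49.0. The middle one, of class UNK (53672607), was on the B6 homologue (share 0.985), whereas the others, at 53699534 and 53668449, were CAST sites used on both. Of the 3, the site at 53668449 overlapped an independent peak. Hormad2 had 3 CAST sites with DMC1 of 832, 543 and 8.997. Tex14, which is needed for the bridges between germ cells, had a HUM site with DMC1 351 (87475658) and another with 27.0. Brip1, a helicase gene of break repair, had a CAST site with DMC1 326 (86159060). The site near Rad51d, a gene of break repair (82892700), lay on an independent peak, with DMC1 169 against H3K4me3 114.

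The remaining meiotic sites were weak or moderate. Brca1, which acts in homologous repair, had CAST sites with DMC1 of 92.2 and 15.8. Single sites lay in Meikin, a regulator of the meiosis I kinetochore (DMC1 24.9), Spata22, a single-strand binding factor (25.8), and Trp53 (17.9). No site lay in or within 5 kb of Rad51c, Psmc3ip, Top3a, Eme1, Rpa1, Tex19.1 or Meioc. These are called sites only, and weaker ones could not be seen.

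Clustered gene families were counted in the same way, without regard to gene length. The 10 Hoxb genes, which pattern the body axis, had 2, both within Hoxb3 and on independent peaks. The first (96347104, CAST) had DMC1 54.3 and H3K4me3 32.3, the second (96309488, HUM) 30.7 and 17.9, and their log2 ratios of 0.75 and 0.77 were below the chromosome's lower quartile of 1.60. No site lay at the 8 type I keratin genes or the 3 alpha globin genes. The 6 skeletal myosin genes had 1, beside Myh13 (67323948, CAST), with DMC1 299 and H3K4me3 38.0. Among 11 Ccl chemokine genes there were 3 sites, in Ccl4 and beside Ccl6 and Ccl12, with DMC1 of 75.7, 42.0 and 20.2.

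Of 5 cytokine genes listed together, Il4 and Il5, on either side of Rad50, had a site within 5 kb. Both sites were above the chromosome's upper quartile of DMC1 (166). The other genes, Il3, Csf2 and Il13, had none. The one beside Il4 (53620380, CAST) had DMC1 187, H3K4me3 12.6 and a B6 share of 0.985. The one beside Il5 (53719997, UNK) had DMC1 290, H3K4me3 35.6 and a share of 0.822.

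All 18 long genes had sites in the gene or its 5 kb flanks, 124 in total, and Galnt10 had its only site in a flank. These genes were listed for their length, and the count was not set against an expected number. The sites had a median DMC1 of 57.0, H3K4me3 of 12.7 and log2 ratio of 2.29. These were close to the 57.6, 13.4 and 2.40 of the whole chromosome. Asic2, an acid-sensing ion channel gene, held the most of any gene, 21 sites with DMC1 from 11.7 to 564 (median 35.4). Of these 10 were CAST and 10 HUM. Tenm2, a synaptic adhesion gene, held 17, with a median DMC1 of 120 and a highest of 451. Sgcd, which encodes a sarcoglycan of muscle, and Slit3, an axon guidance gene, held 10 each but differed in strength. Median DMC1 was 21.9 in Sgcd and 60.0 in Slit3, and the median log2 ratio 1.70 and 2.65. Fstl4 and Rptor, the latter encoding a subunit of the mTORC1 kinase complex, followed with 9 each. By length Nxn, a thioredoxin-like gene, was denser than these, with 8 sites in 142 kb, and was picked out after its value was seen. The strongest site in the long genes was in Kcnip1, a potassium channel partner (33722678, CAST, DMC1 782, B6 share 0.941).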

How the data were processed

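The deposited table has 1 line per DMC1 peak in mm10 coordinates. Per the file headers, the DMC1 signal and the H3K4me3 signal were estimated by the authors' peak callers, and the B6 fraction of each mark is its signal on the B6 homologue over that on both. The headers credit the H3K4me3 raw reads to Li et al. and do not say if the series' own H3K4me3 library is meant. Reads were aligned with BWA per the submitters' processing notes, version 0.7.15 for H3K4me3 and MNase; that for DMC1, and the scaling to depth, are not given in the sources used here. How many reads stand behind each value is unknown. The MNase library was not analysed here. H3K4me3 repeats an earlier value at 10220 of 24586 sites, 629 of them on chromosome 11 and 48 with the earlier one on chromosome 11 too.

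Signals were compared as medians of log2 values without a pseudocount, with pandas 2.3.3, numpy 2.4.6 and scipy 1.17.1 (Python 3.11.15), and the code was tested on simulated data. Each value of chromosome 11 was set beside the other 18 autosomes and ranked. Protein-coding gene positions were RefSeq's for GRCm38.p6, without strand or exons, so exon, intron and UTR were not assigned. Sites counted for a gene list lay in the gene body or its 5 kb flanks. Windows of 5 Mb needed at least 10 sites. Named sites were the 5 strongest CAST and HUM sites, the 5 lowest and highest ratios among sites above the autosomal median of summed ranks (727 of 1402), the 3 highest and 3 lowest B6 shares among the 100 strongest, the strongest UNK and KO sites, the windows and genes at the extremes, and sites at the gene lists, of which those in long genes are summarised and 1 list is not reported here. Sites centred in promoters were added. The chromosome, the gene lists and these rules were chosen with earlier results of these data known. Alternatives covered class, overlap with independent peaks, matched H3K4me3 and gene number, thresholds and window size.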

Additional observations from a re-analysis of the deposited data

How the results depend on the processing

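The lower log2 ratio of chromosome 11 (-0.21) kept its sign in all 17 alternatives. Since the chromosome was chosen on this ratio and the alternatives reuse the same sites, neither sign nor rank is independent support. The difference was -0.11 at matched gene number of the window and -0.10 on the centromere-proximal side of the midpoint. At one-homologue H3K4me3 sites it was -0.31, and -0.24 to -0.13 in the other 14. Chromosome 11 was the lowest of 19 autosomes in 10 of the 17 and among the lowest 3 in 15; on the proximal side and at independent sites it was 6th. With the first site of each repeated H3K4me3 value only, the difference was -0.14 and chromosome 11 the third lowest, with chromosome 2 at -0.21. The DMC1 difference of -0.10 was 0.022 at CAST sites, and the H3K4me3 difference of 0.22 ran from 0.16 to 0.33. With 5 kb flanks, 66.5% of sites were in genes. One-homologue sites by DMC1 were 40.2% at limits of 0.2 and 0.8, and 13.8% by the H3K4me3 share. The correlation of ratio and gene number was -0.56 in 2 Mb and -0.52 in 10 Mb windows, and -0.67 to -0.60 in 3 other settings; a minimum of 20 sites removed no window. The causes of these shifts were not tested. Matched gene number, both sides of the midpoint, both homologue groups and the correlation without the 2 windows farthest from the median gene number were added after the data were seen. No paired analysis was possible because each assay has 1 library. Depth was unknown, so weak sites and shares could not be filtered by reads.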
